A study of Mus musculus with 6 samples.

Results

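The genes described here build ribosomes rather than form part of them. They comprise 46 genes for RNA polymerase I transcription, rRNA modification and processing, and assembly of the ribosomal subunits, and they were picked by symbol from the 17920 genes listed in the deposited table. Each symbol was found. The question put to them was whether these assembly factors moved against the ribosomal protein genes after knockdown of Ybx1, a cold-shock domain protein that binds RNA and reads 5-methylcytosine (m5C).

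RNA was sequenced from cells cultured from mouse cortex at E13.5, a stage of embryonic neurogenesis. Control cells (WT in the labels, Ctrl in the data columns; 3 libraries) received a control lentivirus, and KD cells (3 libraries) received a lentivirus carrying a short hairpin RNA against Ybx1. Both groups were then selected with puromycin, to which the virus gives resistance. The labels give brain as tissue, and the text of the series calls the change a deletion. The methods of the study list 2 hairpins against Ybx1 and a control hairpin, but do not say which of the 2 these libraries used, and they name C57BL/6J for the making of the mutant mice, not for the embryos cultured here. The replicates were described as separate experiments, and the table does not say which embryos went into each.

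Libraries held 16294635 to 16497505 estimated counts, so depth was nearly equal. Ybx1 was at 618, 615 and 653 reads per 1000000 (CPM) in the WT libraries and at 98.3, 92.2 and 159 in the KD libraries, with the highest KD value in replicate 3 (edgeR log2 fold change -2.43, SE 0.18, adjusted p = 1.8e-04). Markers of cortical cells were present, with summed levels of 3450 to 3954 transcripts per 1000000 (TPM) for 16 radial glia genes in WT, whereas 9 microglial genes summed to at most 8.19 TPM and 7 endothelial genes to at most 1.67 TPM in any library. A list of 10 interneuron genes summed to 7155, 5151 and 4229 TPM in WT and to 5639, 4563 and 3811 TPM in KD, falling from replicate 1 to 3 in both groups.

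Ribosomes are made in the nucleolus, where RNA polymerase I copies the rDNA into a long precursor. Small nucleolar ribonucleoproteins (snoRNPs) of the box C/D and box H/ACA classes guide methylation and pseudouridylation of that precursor. The small-subunit processome then cuts and folds the part that becomes the 40S subunit, while a second set of factors matures the 60S subunit and hands it to the cytoplasm. Dividing progenitors of the developing cortex are known for prominent nucleoli and a high demand for this pathway.

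All 46 genes passed the filter on low counts. At an adjusted p of 0.05 in edgeR's quasi-likelihood test, 6 were higher in KD (Dkc1, Emg1, Npm1, Utp14a, Ncl and Noc2l) and 1 was lower (Rrp12). These 7 are 15.2% of the assembly factors, against 24.0% of the 13669 genes tested. The share called higher was 13%, against 12% of all genes, and the share called lower was 2.17%, against 11.9%. The median log2 fold change was 0.02 for the assembly factors and -0.0013 for all genes, with 24 of the 46 above 0 and 22 below.

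The changes were small. Log2 fold changes ran from -0.37 (Rrp12) to 0.30 (Dkc1), and 43 of 46 (93.5%) lay within 0.25 of 0, compared with 68.4% of all genes tested. Of the tested genes, 17.3% had a change larger in size than that of any assembly factor. The 95% interval of the fold change lay within -0.5 to 0.5 for 45 of the 46, and the standard errors were between 0.05 and 0.11. The WT and KD libraries did not overlap for 15 of them (32.6%; 9 higher and 6 lower in KD), against 41.6% of all genes.

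**Figure D1:**
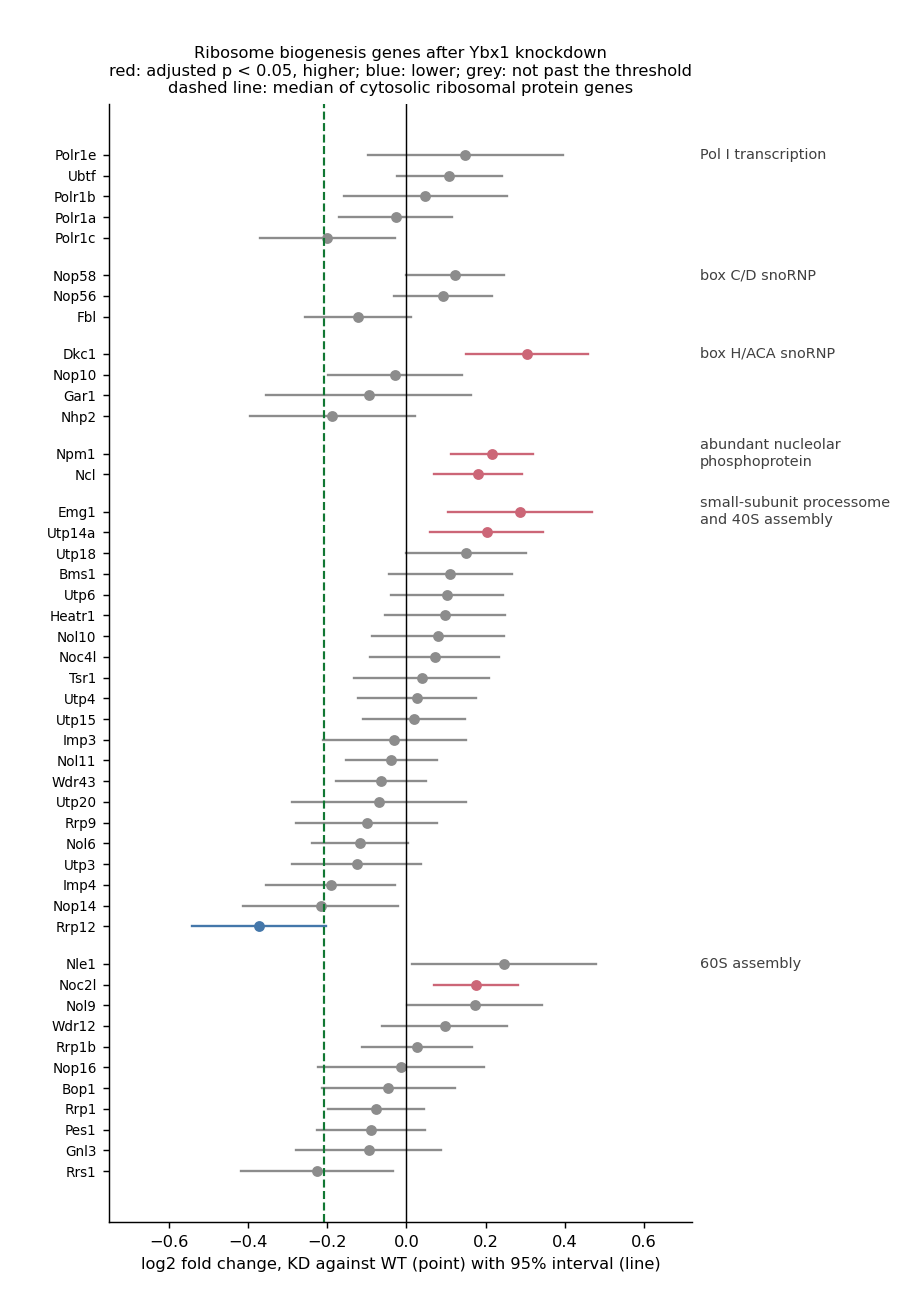
Log2 fold change of KD against WT for each of the 46 assembly factors (x axis; point with 95% interval), grouped by role, from edgeR over 3 WT and 3 KD libraries. Red points are called higher, the blue point (Rrp12) is called lower, grey points did not pass an adjusted p of 0.05, and the dashed line marks the median of 79 ribosomal protein genes at -0.21. Most points sit near 0 and to the right of that line.

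For the 6 genes called higher (13%, against 12% of all genes), the sequence before their start sites is shown where the reference held it. RefSeq promoter windows (GRCm38.p6, from 250 bases before to 50 after the annotated start) matched 39 of the 46 genes. Npm1 and Rrp12 had no entry. The windows were searched on both strands for an E-box (CACGTG, bound by Myc family factors), an ETS-type motif (CCGGAAG) and a CCAAT box (CCAAT), and none of these contains another. The 4 windows below belong to the higher genes that held a match, written 5′ to 3′ in the direction of transcription with the match in capitals, and the Ncl window held none of the 3 motifs.
Dkc1 (CCAAT, chrX:75095604-75095903, plus strand): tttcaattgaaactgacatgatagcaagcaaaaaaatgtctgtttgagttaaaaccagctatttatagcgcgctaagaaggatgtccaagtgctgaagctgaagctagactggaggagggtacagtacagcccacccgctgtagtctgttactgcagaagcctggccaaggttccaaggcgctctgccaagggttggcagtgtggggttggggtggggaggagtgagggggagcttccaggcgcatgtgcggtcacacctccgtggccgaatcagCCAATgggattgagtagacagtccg
Utp14a (CCAAT, chrX:48256684-48256983, plus strand): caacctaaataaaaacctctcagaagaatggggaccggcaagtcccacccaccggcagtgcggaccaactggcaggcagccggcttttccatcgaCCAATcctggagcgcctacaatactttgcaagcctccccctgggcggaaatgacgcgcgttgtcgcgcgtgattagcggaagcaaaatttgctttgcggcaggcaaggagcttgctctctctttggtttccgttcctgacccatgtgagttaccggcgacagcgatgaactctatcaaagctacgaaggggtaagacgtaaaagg
Emg1 (ETS, chr6:124712129-124712428, minus strand): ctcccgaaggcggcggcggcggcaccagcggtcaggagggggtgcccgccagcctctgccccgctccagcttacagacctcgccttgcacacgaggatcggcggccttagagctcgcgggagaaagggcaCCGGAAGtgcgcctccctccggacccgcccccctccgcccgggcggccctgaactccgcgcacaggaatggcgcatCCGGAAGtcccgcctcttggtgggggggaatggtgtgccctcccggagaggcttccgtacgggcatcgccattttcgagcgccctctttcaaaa
Noc2l (ETS, chr4:156235765-156236064, plus strand): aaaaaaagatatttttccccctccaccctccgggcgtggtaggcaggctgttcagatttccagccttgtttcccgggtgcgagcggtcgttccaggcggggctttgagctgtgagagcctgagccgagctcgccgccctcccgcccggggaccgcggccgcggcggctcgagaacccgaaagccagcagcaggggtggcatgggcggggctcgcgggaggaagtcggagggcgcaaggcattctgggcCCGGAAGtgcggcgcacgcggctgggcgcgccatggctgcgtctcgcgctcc
In the Noc2l window the ETS-type letters began 2 bases before the RefSeq start, and in the Emg1 window they occurred at 2 places. The CCAAT letters stood 155 bases before the RefSeq start of Utp14a and after that of Dkc1. In GENCODE, the spans of Noc2l (from chr4:156236010) and Utp14a (from chrX:48256862) begin at other bases than in RefSeq. Distances to the GENCODE starts were not taken. The E-box was found in 9 of the 39 windows (23.1%), 10.1% of the windows of tested genes and 7.24% of all 27025 windows. It was in 16.5% of 103 windows of further biogenesis genes, a list described below, and in 8.62% of ribosomal protein windows. The ETS-type motif was in 13 (33.3%), compared with 17.3% for tested genes and 9.12% for all windows. It was also in 44.7% of further biogenesis windows and 39.7% of ribosomal protein windows. The CCAAT box was in 15 (38.5%), compared with 39.1% for tested genes and 37.9% for all windows. For further biogenesis genes and ribosomal proteins its shares were 36.9% and 31.0%. Assembly factors with an E-box had a median log2 fold change of -0.04 and those without it 0.06. For the ETS-type motif these medians were 0.08 and 0.0022, and for the CCAAT box 0.02 and 0.04. None of the 9 with an E-box (Imp4, Utp4, Utp20, Pes1, Tsr1, Nle1, Utp18, Nol11 and Wdr43) was called. The shares called were 15.2% of the 46 and 24.0% of all genes tested, so a count over 9 genes says little. These matches describe letters in a window, not binding.

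The 2 abundant nucleolar phosphoproteins were both called higher in KD, as were 12% of all genes tested. Npm1 (nucleophosmin), a chaperone that shapes the outer layer of the nucleolus, was the most abundant gene of the group with a mean of 686.5 TPM over the 6 libraries. It stood at 348, 325 and 339 CPM in WT and at 401, 393 and 381 CPM in KD, so that every KD library lay above every WT library. Its log2 fold change was 0.22 (SE 0.05, edgeR adjusted p = 0.0111), a rise of 16.1%. Ncl (nucleolin), which binds the rRNA precursor, was at 382, 373 and 383 CPM in WT and at 444, 441 and 405 CPM in KD. The groups again did not overlap, with KD replicate 3 the nearest to WT (log2 fold change 0.18, SE 0.05, edgeR adjusted p = 0.0277). With offsets for length and GC content its log2 fold change was 0.10 and the call was lost (edgeR adjusted p = 0.103). In GENCODE annotation (GRCm38), Npm1 lies on chr11:33152287-33163206 and Ncl on chr1:86344719-86359400, both on the minus strand, and no exon of another protein-coding gene overlaps either.

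Of the 4 H/ACA snoRNP genes, 1 was called (25%), near the 24.0% of all genes. Dkc1 (dyskerin, chrX:75095854-75109777), the pseudouridine synthase of the particle and also a telomerase component, had the largest rise of the group. It was at 25.6, 24.7 and 24.5 CPM in WT and at 32.2, 28.8 and 31.3 CPM in KD, without overlap, a log2 fold change of 0.30 (SE 0.07, edgeR adjusted p = 0.0142) or 23.4%. Its partners did not pass the test. Nhp2 was at 39.7, 44.6 and 36.2 CPM in WT and at 33.8, 33.3 and 38.9 CPM in KD, so the groups overlapped (log2 fold change -0.19, 95% interval -0.39 to 0.02, edgeR adjusted p = 0.171). Nop10, the third most abundant assembly factor at a mean of 283 TPM, was at 61.8, 69.3 and 56.7 CPM in WT and at 59.5, 61.6 and 62.9 CPM in KD, where the KD values lay inside the WT range (95% interval of the log2 fold change -0.20 to 0.14). Gar1, the least abundant of the 4, had a log2 fold change of -0.10.

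None of the 3 box C/D snoRNP genes passed the threshold. Fbl (fibrillarin), the methyltransferase of the particle, was at 69.4, 72.1 and 64.8 CPM in WT and at 60.8, 65.2 and 63.7 CPM in KD, overlapping by 1 library (log2 fold change -0.12, 95% interval -0.25 to 0.01, edgeR adjusted p = 0.165). Its scaffold partner Nop58 was at 52.6, 49.4 and 50.5 CPM in WT and at 53.7, 57.5 and 54.9 CPM in KD. Every KD value was above every WT value, but the log2 fold change of 0.12 missed the threshold (SE 0.06, edgeR adjusted p = 0.137). Nop56 had a log2 fold change of 0.09. Nop56, Nop58, Ncl, Dkc1, Wdr43, Gnl3 and Tsr1 carry snoRNA genes inside their own spans in GENCODE, between 1 (Dkc1) and 5 (Nop56). Of these 7 hosts, Ncl and Dkc1 were the ones called, where 24.0% of all genes tested were called.

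The 5 genes of RNA polymerase I transcription did not pass the test either, with log2 fold changes from -0.20 to 0.15. Ubtf, the factor that binds along active rDNA, was at 118, 120 and 133 CPM in WT and at 133, 138 and 130 CPM in KD, with overlap (log2 fold change 0.11, 95% interval -0.02 to 0.24, edgeR adjusted p = 0.208). Polr1c, a subunit that RNA polymerase III also uses, was at 25.9, 23.6 and 23.2 CPM in WT and at 20.9, 20.6 and 21.8 CPM in KD. All KD libraries were below all WT libraries here, and the log2 fold change was -0.20 (SE 0.08, edgeR adjusted p = 0.0865). The catalytic subunits Polr1a and Polr1b had log2 fold changes of -0.03 and 0.05, and Polr1e, the lowest of all 46 at a mean of 6.16 TPM, one of 0.15.

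Among the 21 genes of the small-subunit processome and 40S assembly, 2 were higher (9.52%) and 1 was lower (4.76%), against 12% and 11.9% of all genes. Their median log2 fold change was 0.02. Rrp12, a HEAT-repeat protein needed for processing and export of pre-ribosomes, was at 48.0, 52.9 and 50.9 CPM in WT and at 35.2, 40.6 and 41.5 CPM in KD. The lowest WT library was thus above the highest KD library. It fell by 22.7% (log2 fold change -0.37, SE 0.07, edgeR adjusted p = 0.00882) and kept its call in all 20 alternatives, left-out libraries included. The gene lies on chr19:41862851-41896173, minus strand, and shares no exonic base with another protein-coding gene.

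Emg1, which methylates a pseudouridine of the 18S rRNA, was at 29.0, 27.1 and 25.1 CPM in WT and at 35.3, 30.4 and 33.4 CPM in KD. The groups did not overlap, and the log2 fold change was 0.29 (SE 0.08, edgeR adjusted p = 0.0319), a rise of 22.1%. Utp14a, a processome subunit that activates a helicase, was at 24.7, 24.3 and 25.8 CPM in WT and at 28.9, 29.3 and 27.9 CPM in KD, also without overlap. Its log2 fold change of 0.20 was the call nearest the threshold (SE 0.06, edgeR adjusted p = 0.0473). DESeq2 gave it an adjusted p of 0.169.

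The other 18 processome and 40S genes had log2 fold changes between -0.22 (Nop14) and 0.15 (Utp18), none of them called in this fit. A fit with the replicate block, described further on, called Nop14 and Imp4 lower (edgeR adjusted p = 0.0166 and 0.0316). The UtpA subcomplex, which joins the precursor first, was represented by Utp4, Utp15, Wdr43, Nol11 and Heatr1, with values from -0.06 to 0.10 and none called. The UtpB subunits Utp6 and Utp18 were at 0.10 and 0.15. The U3-binding proteins Imp3 and Imp4 were at -0.03 and -0.19, and the U3-specific protein Rrp9 was at -0.10. The GTPase Bms1 was at 0.11 and its relative Tsr1, which acts on late pre-40S particles, at 0.04. Nol10, Noc4l, Utp20, Nol6 and Utp3 stood at 0.08, 0.07, -0.07, -0.12 and -0.13.

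In the 60S group, 1 of 11 genes was called (9.09%), against 24.0% of all genes. Noc2l, which accompanies pre-60S particles and also inhibits histone acetyltransferases, was at 101, 102 and 105 CPM in WT and at 113, 118 and 118 CPM in KD, with no overlap (log2 fold change 0.18, SE 0.05, edgeR adjusted p = 0.0275). Exons of Samd11 on the opposite strand cover 20.9% of its exonic bases (chr4:156236010-156247616), and exons of Lpcat3 cover 7.21% of those of Emg1 (chr6:124704085-124712178). Whether the libraries kept strand is not given in the sources used here. Noc2l had fractional estimated counts in 6 libraries and Emg1 in 5, which arise where a program shares reads between genes, and the part of this in their values was not tested. Tsr1 (6 libraries), Wdr12 (5) and Polr1b (1) also had fractional counts, and exons of Srr cover 32.3% of those of Tsr1.

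Rrs1, which helps load the 5S particle, was at 27.1, 32.8 and 28.0 CPM in WT and at 25.5, 24.2 and 25.6 CPM in KD. The groups did not overlap, yet its log2 fold change of -0.23 did not pass without the replicate block (SE 0.08, edgeR adjusted p = 0.0832), and passed with it (0.0366). Rrp1, second in abundance at a mean of 299.8 TPM, was at 261, 276 and 246 CPM in WT and at 255, 247 and 241 CPM in KD, with overlap and a log2 fold change of -0.08 (95% interval -0.20 to 0.04). The PeBoW complex (Pes1, Bop1 and Wdr12), required for 28S rRNA maturation, had log2 fold changes of -0.09, -0.05 and 0.10 and no call. Nle1, which prepares pre-60S particles for export, was at 0.25 with a 95% interval of 0.01 to 0.48 and an edgeR adjusted p of 0.114. The polynucleotide kinase Nol9 was at 0.17 (edgeR adjusted p = 0.129, and 0.0394 with the block), Rrp1b at 0.03, Nop16 at -0.01 and Gnl3 (nucleostemin, a nucleolar GTPase of stem and progenitor cells) at -0.09.

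**Figure D2:**
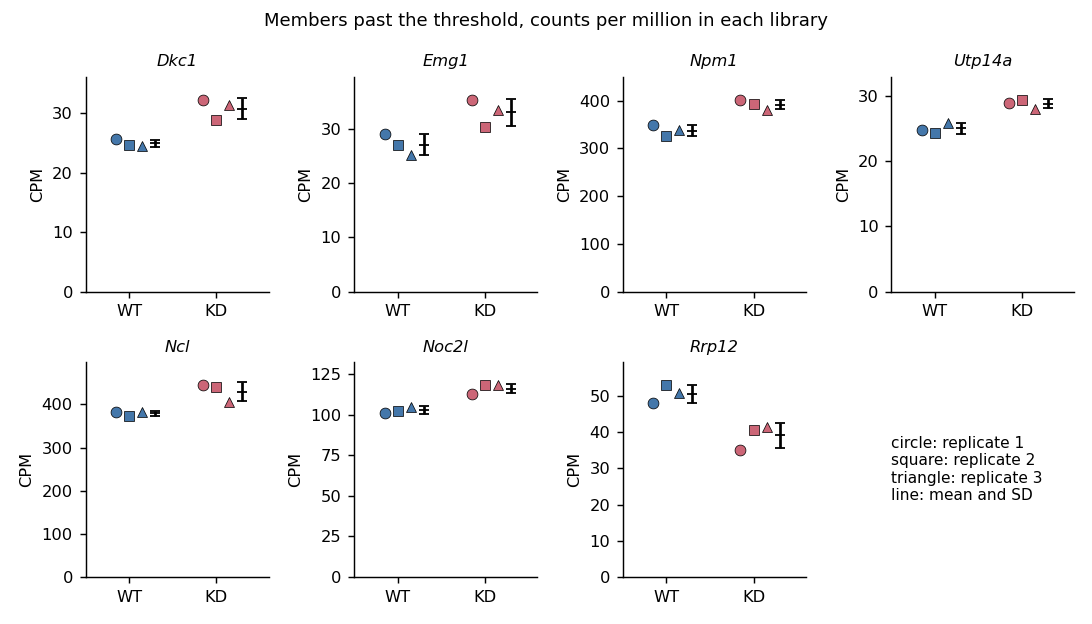
CPM (y axis, from 0) of the 7 called assembly factors in each of the 3 WT and 3 KD libraries, with symbols for replicates 1 to 3 and the group mean with SD beside them. In 6 panels every KD library lies above every WT library, and for Rrp12, at 48.0 to 52.9 in WT and 35.2 to 41.5 in KD, every KD library lies below.

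Same-numbered WT and KD libraries deviated together, and a second fit took the replicate number as a term. With this replicate block, edgeR called 7 assembly factors higher and 4 lower, against 18.6% and 18.1% of all genes. The 7 genes above remained. Nol9 was added among the higher (edgeR adjusted p = 0.0394 with the block), and Nop14 (0.0166), Imp4 (0.0316) and Rrs1 (0.0366) among the lower.

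The calls in the upward direction depended most on WT replicate 2. Without WT replicate 2, none of the 6 passed, with edgeR adjusted p-values from 0.0562 (Npm1) to 0.146 (Utp14a), and 779 genes were called higher in all. Without WT replicate 1, or without any 1 of the KD libraries, 3 passed. Without WT replicate 3, 5 of the 6 passed together with Nol9 (adjusted p = 0.0432) and Ubtf (0.0488). The log2 fold changes of the 6 stayed between 0.16 and 0.35 in these fits.

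The ribosomal proteins behaved differently in the same libraries. Of 79 cytosolic ribosomal protein genes tested, 0 were higher and 50 (63.3%) were lower in KD in edgeR, and with the block 59 were lower. Among all genes tested, 11.9% were lower, and 18.1% with the block. Fractional estimated counts occurred for 16 of the 79, and the part of this in their values was not tested. Of the 63 with whole counts in every library, 41 were lower without the block, with a median log2 fold change of -0.21. In all, 77 of the 79 had log2 fold changes below 0, with a median of -0.21. The range ran from -0.63 for Rps12, a 40S protein, to 0.08 for Rpl38, a 60S protein. Rps12 was at 249.8, 247 and 242 CPM in WT and at 159, 155 and 162 CPM in KD (edgeR adjusted p = 1.7e-04), and Rpl38 was at 123, 129 and 115 CPM in WT and at 134, 125 and 128 CPM in KD, with overlap (edgeR adjusted p = 0.347). The WT and KD libraries did not overlap for 64 of the 79 (81.0%; 1 higher and 63 lower in KD), against 41.6% of all genes.

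Set side by side, the medians of the lists lay 0.23 apart on the log2 scale, at 0.02 for the assembly factors and -0.21 for the ribosomal proteins. This gap stayed between 0.202 and 0.234 in every alternative scaling, filter, tool and left-out library. It was smaller with length offsets (0.187) and with length and GC offsets (0.178), both without the replicate block. Ribosomal protein genes were the shorter list, with a median relative length of 0.15, against 0.84 for the assembly factors. Over all tested genes, the Spearman correlation of log2 fold change with relative length was 0.119. Within the assembly factors it was 0.183. The 95% interval of 29 of the 46 assembly factors lay wholly above the ribosomal protein median, that of 17 contained it, and none lay below it. Rrp12, Rrs1 and Nop14 had point values below it. In the other direction, 2 ribosomal proteins were above the assembly factor median and 6 were below Rrp12. No test was made on the lists, whose genes were chosen with results of these data known.

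**Figure D3:**
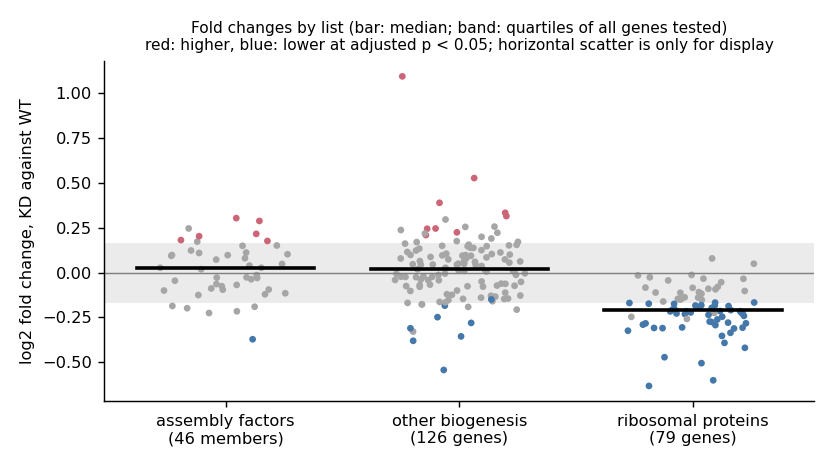
Log2 fold change of KD against WT (y axis) for the 46 assembly factors, 126 other biogenesis genes and 79 ribosomal protein genes, 1 point per gene, with the list median as a bar and the quartiles of all 13669 tested genes as a grey band. Red and blue points passed an adjusted p of 0.05 in edgeR. The medians of the first 2 lists are both 0.02, and that of the ribosomal proteins is -0.21, below the band.

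Summed levels gave the same order. The assembly factors summed to 3115, 3142 and 3100 TPM in WT and to 3340, 3395 and 3274 TPM in KD, so every KD library was above every WT library by sum. Npm1 made up 18.9% to 23.1% of that sum. Without it the sums were 2475, 2550 and 2465 TPM in WT and 2569, 2632 and 2555 TPM in KD, still without overlap. Without Npm1 and Ncl they were 2351, 2429 and 2339 TPM in WT and 2415, 2481 and 2420 TPM in KD, which overlap, so the separation of the sums depended on these 2 genes. Ribosomal proteins summed to 129901, 128137 and 129191 TPM in WT and to 119432, 115564 and 118151 TPM in KD, all KD libraries being lower. Per 100 TPM of ribosomal protein, the libraries held 2.398, 2.452 and 2.399 TPM of assembly factor in WT and 2.796, 2.938 and 2.771 TPM in KD, an increase of the mean by 17.3%.

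TPM values are shares of a fixed total, so a lower share for one large group raises the others, and the median gene was 0.05 higher in log2 TPM in KD. On the CPM scale the mean sum was 2962 ± 24.0 (SD, n = 3) in WT and 3061 ± 46.3 in KD for the assembly factors, a difference of 3.35%. Without Npm1 and Ncl, the other 44 genes summed to 2246 ± 40.4 CPM in WT and 2240 ± 45.2 in KD, so that these 2 genes carried the whole difference on this scale. For the ribosomal proteins it was 25863 ± 148 CPM in WT and 22002 ± 579 CPM in KD, which was 14.9% less, while on the TPM scale it was 8.8% less.

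**Figure D4:**
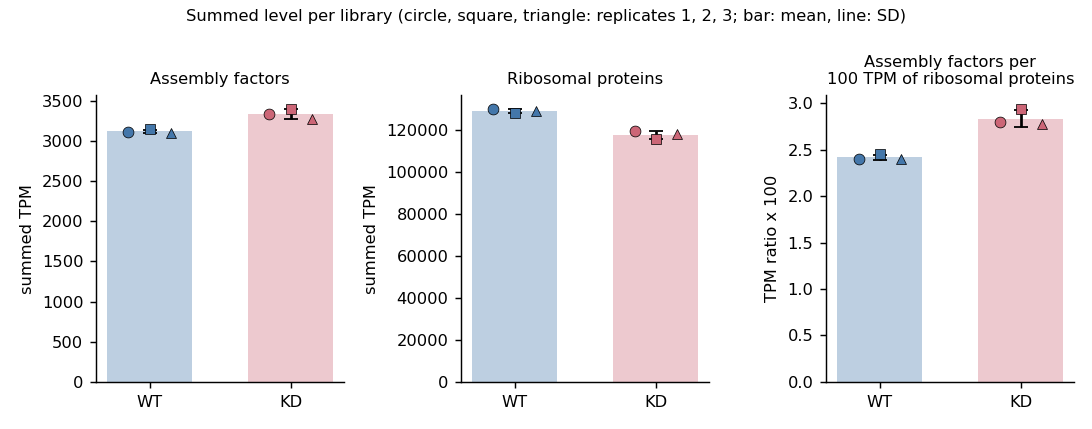
Summed TPM (y axes, from 0) of the assembly factors and of the ribosomal proteins, and assembly factor TPM per 100 TPM of ribosomal protein, in 3 WT and 3 KD libraries; bars are means and lines are SD. The ratio is 2.398 to 2.452 in WT and 2.77 to 2.94 in KD, without overlap.

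A wider list of 126 further biogenesis genes, all tested, had 9 higher (7.14%) and 8 lower (6.35%), against 12% and 11.9% of all genes, and a median log2 fold change of 0.02. With the replicate block 16 were higher and 12 lower, where 18.6% and 18.1% of all genes were called. The RNA exosome, which trims rRNA precursors, had 1 call among 13 genes (7.69%), against 24.0% of all genes. Further 60S factors had 4 higher and 7 lower among 52 (21.2% called). Exosc9, an exosome subunit, was the highest. It was at 14.5, 14.4 and 15.1 CPM in WT and at 28.9, 32.6 and 32.5 CPM in KD (log2 fold change 1.09, SE 0.08, edgeR adjusted p = 1.7e-04), with fractional counts in all 6 libraries.

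Exons of Ccna2, a cyclin of S and G2 phase on the opposite strand, cover 10.8% of the exonic bases of Exosc9. Ccna2 was at 46.4, 44.9 and 38.6 CPM in WT and at 79.2, 58.1 and 56.1 CPM in KD (edgeR adjusted p = 0.015), and its part in the Exosc9 value was not tested. Snu13, which binds the kink-turn of box C/D snoRNAs, was second at 75.4, 79.3 and 75.9 CPM in WT and 105, 112 and 115 CPM in KD (log2 fold change 0.53, edgeR adjusted p = 6.45e-04, fractional counts in 6 libraries). At the other end, Rrp8, an rRNA base methyltransferase, was at 21.8, 20.4 and 19.5 CPM in WT and at 14.55, 13.54 and 14.24 CPM in KD (log2 fold change -0.54, edgeR adjusted p = 0.00312), and exons of Ilk on the other strand cover 9.98% of its own. Zfp622, a late 60S factor, was at 43.0, 45.0 and 37.4 CPM in WT and at 32.5, 34.0 and 29.8 CPM in KD (log2 fold change -0.38, edgeR adjusted p = 0.0131).

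Markers of other cell states moved in the same libraries. Among all genes tested, 12% were called higher and 11.9% lower. Radial glia genes had 4 of 16 higher and none lower, with sums of 3450 to 3954 TPM in WT and 4060 to 4357 TPM in KD. Of 41 S phase genes, 21 were higher and none lower, and their summed level was 943 to 1018 TPM in WT and 1211 to 1432 TPM in KD. Of 46 G2/M genes, 16 were higher, with sums of 1225 to 1367 TPM in WT and 1494 to 1867 TPM in KD. KD replicate 1 held the highest S phase and G2/M sums, at 1432 and 1867 TPM. KD replicates 2 and 3 were at 1226 and 1211 TPM for S phase and at 1521 and 1494 TPM for G2/M. Of 11 intermediate progenitor genes, 10 were tested and 7 were higher. The sums over all 11 were 202 to 237 TPM in WT and 328 to 368 TPM in KD. The list of 18 neuronal genes had 3 higher and 4 lower, and its sums overlapped at 7934 to 8744 TPM and 7456 to 8477 TPM. The part of these shifts in the values of the assembly factors and the ribosomal proteins was not tested, and in bulk RNA more cells of a type cannot be told apart from more RNA per cell.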

How the data were processed

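The sample titles gave the groups and the replicate numbers, by which the Ctrl and KD data columns were matched to WT and KD titles. Messenger RNA was purified by the authors and sequenced on the DNBSEQ platform. The submitters' processing notes name HISAT2 2.2.1, Bowtie2 2.4.5 and RSEM 1.3.1 with the GRCm38 (mm10) build, with no role given. The deposited table holds estimated counts per gene, of which 89.3% to 89.9% per library were whole, and TPM values that the authors scaled to a fixed sum per library. A further 6 columns of FPKM and 6 of group averages were not used, nor were the authors' own comparisons.

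For edgeR 4.0.16 (R 4.3.3), estimated counts were rounded (TMM scaling, filterByExpr with a minimum count of 10, quasi-likelihood F test, two-sided, Benjamini-Hochberg over 13669 genes, threshold 0.05). CPM are TMM-scaled. Standard errors are the log2 fold change divided by the root of F. Alternatives were other scalings, filters, DESeq2 1.42.0, limma 3.58.1 on log2(TPM + 1) and log2(TPM + 0.1) and with voom, length offsets, leaving out each library and a stricter threshold. Length and GC offsets together were added after seeing the data. P-values measure the spread between these 3 libraries per group.

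Correlations of deviations from the group means were 0.351, 0.32 and 0.178 for same-numbered WT and KD libraries and -0.276 to -0.018 otherwise. Deviations from a group mean cancel within the group, so the negative values follow in part from the positive ones. All 3 being over 0.1, the numbers were taken to pair the libraries, as the series text speaks of 3 batches. The reported fit was planned without this pairing, because the general tests of the study were unpaired, and the fit with the block is given beside it. Chi-square statistics between replicates were 4.57 to 9.05 per degree of freedom, so none was a repeat of another.

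The genes and lists were chosen with earlier results of these data known. Values per library are given for the 2 genes with the smallest p in each role (1 in each direction where both passed) and the 4 most abundant, and for Utp14a because it was called. Of the further biogenesis genes, the 2 highest and 2 lowest past the threshold are named. Fold changes are given for the rest.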

Additional observations from a re-analysis of the deposited data

How the results depend on the processing

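The gap between the medians of the assembly factors and the ribosomal proteins was 0.2291 in the reported fit and lowest at 0.178, with length and GC offsets. Each of the 20 alternatives moved it by less than 0.0576, the SD of the gap over the 3 KD libraries, each set against the WT mean. Spread among the WT libraries is not part of that SD. With the replicate block, 2539 genes were higher and 2470 lower, 4 assembly factors were lower and 16 further biogenesis genes were higher, and the block changed no call of an assembly factor beyond those named above. Further biogenesis genes called lower numbered 5 under total count scaling, without a filter, with DESeq2 and with limma on either TPM scale. With limma on log2(TPM + 1) and log2(TPM + 0.1), 1072 and 1063 genes, and 32 and 33 ribosomal proteins, were lower, 18 further biogenesis genes were higher in both, and the medians were 0.0692 and 0.0728 for the assembly factors and -0.15 and -0.15 for the ribosomal proteins. Length offsets with the block gave 2645 genes higher and 2866 lower, 5 assembly factors lower, 1 ribosomal protein higher and 21 further genes higher. Length and GC offsets gave 1 ribosomal protein and 14 further genes higher and a ribosomal protein median of -0.16. With the block these offsets gave 2741 genes higher and 2740 lower, 10 assembly factors higher and 3 lower, 1 ribosomal protein higher, 24 further genes higher and 15 lower, and again a median of -0.16. At an adjusted p of 0.01 the calls were 629 genes higher and 634 lower, 0 assembly factors higher, 28 ribosomal proteins lower, and 2 further genes higher and 3 lower.

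Leaving out 1 library at a time gave 779 to 1612 genes higher and 797 to 1583 lower, 0 to 7 assembly factors higher and 1 to 2 lower, 28 to 49 ribosomal proteins lower (28 without KD replicate 2), and 3 to 9 further genes higher and 3 to 8 lower.

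Of the called genes, Utp14a missed the threshold under upper quartile scaling (edgeR adjusted p = 0.0681), without a filter (0.0635), with DESeq2 (0.169), with voom (0.0506) and with length and GC offsets (0.0511). Ncl missed it with length and GC offsets (0.103), where its log2 fold change was 0.0972. Nle1, not called in the reported fit, passed with limma on both TPM scales (0.0216 and 0.0205) and with length and GC offsets (0.0303). With length offsets and the block, Nop56 passed as higher (edgeR adjusted p = 0.0428) and Nol6 as lower (0.00925). With length and GC offsets and the block, Nop56 (edgeR adjusted p = 0.0387), Ubtf (0.0412) and Nle1 (0.0142) passed as higher. The sign turned in at least 1 setting for 13 assembly factors, none called in the reported fit and none past the threshold when turned. On the TPM + 1 and TPM + 0.1 scales Nop10 was at 0.0370 and 0.0371, Bop1 at 0.0049 and 0.0050, Nop16 at 0.0092 and 0.0094, Nol11 at 0.0108 and 0.0111, Polr1a at 0.0058 and 0.0059 and Imp3 at 0.0281 and 0.0284. Nop16 was at 0.0073 with total counts. Utp15 was at -0.0023 with upper quartiles. With length offsets, without and with the block, Nop10 was at 0.0081 and 0.0090, Nop16 at 0.0101 and 0.0107, Utp15 at -0.0050 and -0.0051, Rrp1b at -0.0081 and -0.0085 and Imp3 at 0.0037 in both. With length and GC offsets, without and with the block, Bop1 was at 0.0350 and 0.0337, Nop16 at 0.0157 and 0.0165, Utp15 at -0.0298 and -0.0301, Rrp9 at 0.0062 and 0.0066 and Imp3 at 0.0513 in both. With 1 library left out at a time, values ran from -0.0943 to 0.0503 for Nop10, -0.1001 to 0.0184 for Bop1, -0.0793 to 0.0757 for Nop16, -0.0089 to 0.0645 for Utp4, -0.1434 to 0.0237 for Utp20, -0.0139 to 0.0649 for Rrp1b, -0.0908 to 0.0125 for Polr1a, -0.0177 to 0.1510 for Polr1b, -0.0812 to 0.0178 for Imp3 and -0.0196 to 0.0941 for Tsr1. The causes were not tested. Standard errors of the 46 genes had a median of 0.07 on the log2 scale and reached 0.11, and no detection limit was tested.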
